A study of Mus musculus with 12 samples.

Results

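The metallothioneins and the antioxidant defence genes of mouse quadriceps muscle were represented by 10 genes: Mt1, Mt2, Hmox1, Nqo1, Sod1, Sod2, Gpx1, Gpx3, Prdx3 and Txnip. Every probe set that the array annotation names with exactly 1 of these symbols was taken, which gave 19 of the 45037 probe sets on the array. Of these, 18 passed the filter on low signal, at least 1 for each of the 10 genes, and the other, a Sod1 probe set (1447761_x_at), read between 0.640 and 22.7 over the 12 arrays and was not tested. The probe sets were taken by gene symbol, with no threshold on their values, but the 10 genes were chosen with earlier results of these data known.

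The study treated C57Bl/6J mice for 6 days and measured the RNA of their quadriceps on Affymetrix arrays. The 4 groups received vehicle alone, AICAR (250 mg/kg/day), GW1516 (a daily dose of 5 mg/kg), or both drugs at those doses. AICAR is a nucleoside that cells convert to an AMP mimic and that activates AMP-activated protein kinase, and GW1516 is an agonist of the nuclear receptor PPARδ. Each group had 3 arrays, and the RNA on each array was pooled from 3 mice of that group. All 12 arrays were labelled as one set, set 2; the labels give no genotype other than the strain, and no age or sex. They do not say whether a mouse entered more than 1 pool, so a p-value here reflects only how much these pools varied, and a pool hides the spread between its mice. In whole muscle, fewer cells of a type and less RNA per cell cannot be told apart.

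Metallothioneins are small, cysteine-rich proteins that bind zinc and copper and scavenge reactive oxygen species. Their genes are transcribed in response to zinc through the metal-responsive factor MTF1, which binds metal response elements, and also in response to glucocorticoids. Superoxide dismutases turn superoxide into hydrogen peroxide, which glutathione peroxidases and peroxiredoxins then reduce. Hmox1 and Nqo1 are classical targets of the transcription factor NRF2, which binds antioxidant response elements. Txnip binds thioredoxin and limits glucose uptake, and its transcription rises with glucose through the carbohydrate response elements of its promoter.

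The promoters of Mt1, Mt2 and Txnip are shown because the results turn mainly on these genes. Each line gives the 250 bases before a RefSeq start on build GRCm38.p6, 5′ to 3′ on the plus strand, which is the coding strand of all 3 genes. The Mt2 window is chr8:94172368-94172617 and ends at the base before the gene record. The Mt1 window is chr8:94178839-94179088. The Mt1 gene record begins inside it, at base 94178883, so most of the window lies within the record and is transcribed from an earlier start. The Mt2 and Mt1 records lie on the same strand, 5315 bases apart. The Txnip window is chr3:96557707-96557956. Capitals mark matches to the metal response element letters in the metallothioneins and to the carbohydrate response element letters in Txnip.
Mt1: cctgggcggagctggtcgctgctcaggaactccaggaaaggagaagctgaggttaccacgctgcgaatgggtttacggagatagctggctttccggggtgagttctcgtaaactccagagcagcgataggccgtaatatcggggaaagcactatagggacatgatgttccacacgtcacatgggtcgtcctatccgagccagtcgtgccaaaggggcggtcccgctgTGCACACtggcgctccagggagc
Mt2: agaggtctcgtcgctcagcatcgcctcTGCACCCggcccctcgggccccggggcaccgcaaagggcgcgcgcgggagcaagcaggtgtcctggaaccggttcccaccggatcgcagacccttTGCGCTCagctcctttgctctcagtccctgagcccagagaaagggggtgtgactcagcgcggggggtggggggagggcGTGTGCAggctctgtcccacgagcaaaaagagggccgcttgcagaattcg
Txnip: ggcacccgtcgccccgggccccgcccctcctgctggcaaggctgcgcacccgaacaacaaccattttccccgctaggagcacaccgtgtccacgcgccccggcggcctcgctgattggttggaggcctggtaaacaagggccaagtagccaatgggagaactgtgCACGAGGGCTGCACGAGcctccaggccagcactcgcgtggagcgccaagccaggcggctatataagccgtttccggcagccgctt
Metal response elements were searched as TGCACNC or TGCGCNC on both strands. Mt2 had 3 matches, whose first bases lay at -223, -128 and -50 counted from the start, and Mt1 had 1 match at -23. The Mt1 match lies inside the gene record, and little of the sequence before that record was searched. The counts of Mt1 and Mt2 are therefore not comparable. The Txnip window also held 1 such match, left in lower case. Of the 32851 promoter windows of the same length in the RefSeq table, 21.4% held at least 1 such match and 1.26% held at least 3. The carbohydrate response element was searched as a pair of CACGNG boxes with a gap of 5 bases, on both strands, and Txnip held 1 match at -85; 0.0457% of windows held one. The antioxidant response element, searched as TGACNNNGC, matched once in Mt2 and once in Sod1 at -56, and at least once in 10.2% of windows. No matches of different motifs overlapped in the windows of the 9 genes that had an entry. A match describes the letters of the window and is no evidence that a factor binds there.

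No probe set of the 10 genes passed the test in any comparison. With limma on log2 signal, over 27022 probe sets and at a Benjamini-Hochberg adjusted p below 0.05, 0 of 18 were called for AICAR against vehicle, where 0.0111% of all probe sets were called. The same count was 0 of 18 for GW1516 against vehicle, with 0.0407% of all probe sets called, and 0 of 18 for the combination against vehicle, with 0.292%. It was also 0 of 18 for the combination against AICAR (0.00370% of all), the combination against GW1516 (0%), AICAR against GW1516 (0%), the interaction of the drugs (0%) and a test over the 4 groups (0.0925%). At an unadjusted p under 0.05, 3 of 18 passed for AICAR (7.21% of all probe sets), 5 for GW1516 (8.99%) and 0 for the combination (11.2%). The same count was 1 for the combination against AICAR (7.19%), 2 for the combination against GW1516 (10.3%) and 7 for the test over the 4 groups (10.6%). The 3 comparisons use the same vehicle arrays, so their values are not independent of each other. The values below therefore describe how far each gene lay from its vehicle level, with the error of each difference.

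The metallothioneins had the largest fitted differences from vehicle among the 10 genes' brightest probe sets. The brighter Mt1 probe set (1422557_s_at) read 525, 611 and 673 in the vehicle arrays and 949, 942 and 1098 in the AICAR arrays. It read 807, 2999 and 1122 with GW1516 and 1046, 939 and 727 with the combination. All 9 treated arrays lay above all 3 vehicle arrays, an order that 0.962% of all probe sets showed, and the second GW1516 array stood far above every other. The mean log2 signal was lowest with vehicle (9.23 ± 0.18, SD, n = 3), followed by the combination (9.80 ± 0.27), AICAR (9.96 ± 0.13) and GW1516 (10.45 ± 0.99). The difference from vehicle was 0.73 ± 0.33 for AICAR (SE, log2; 1.66-fold; limma adjusted p = 0.677), 1.22 ± 0.33 for GW1516 (2.33-fold; adjusted p = 0.303) and 0.58 ± 0.33 for the combination (1.49-fold; adjusted p = 0.549). The neighbours above vehicle in this order did not differ beyond their spread: the combination minus AICAR was -0.15 ± 0.33 and AICAR minus GW1516 was -0.49 ± 0.33 on the log2 scale.

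Mt2 (1428942_at) read 270, 481 and 669 with vehicle, 895, 658 and 718 with AICAR, 603, 2101 and 1007 with GW1516, and 757, 676 and 489 with the combination. Here the vehicle arrays themselves spread widely and overlapped each treated group; 6 of the 9 treated arrays lay above the highest vehicle array. The order of the group means was the same as for Mt1, from 8.79 ± 0.66 with vehicle through 9.30 ± 0.33 with the combination and 9.55 ± 0.23 with AICAR to 10.08 ± 0.91 with GW1516 (log2, SD, n = 3). Mt2 differed from vehicle by 0.76 ± 0.38 with AICAR (1.69-fold; limma adjusted p = 0.709), 1.29 ± 0.38 with GW1516 (2.45-fold; adjusted p = 0.349) and 0.51 ± 0.38 with the combination (1.42-fold; adjusted p = 0.657). No neighbours in the order of Mt2 differed beyond their spread.

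One array carried much of the GW1516 values. Without the second GW1516 array, the difference of GW1516 from vehicle was 0.67 ± 0.17 for Mt1 and 0.81 ± 0.31 for Mt2 (log2), with limma adjusted p = 0.417 and 0.677. The Mt2 differences also moved with single vehicle arrays: without the first, the lowest of the 12, they were 0.40 for AICAR and 0.15 for the combination, and without the third 1.06 and 0.81. With only the vehicle and AICAR arrays in the fit, the Mt1 difference of 0.73 kept its size, its SE was 0.11 and its limma adjusted p was 0.0410, so Mt1 was called there, among 34 of 27022 probe sets.

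Both metallothioneins were lower with the combination than the sum of the single drugs gives. The interaction, taken as the difference of the combination from vehicle less the differences of both single drugs, was -1.37 ± 0.47 for Mt1 and -1.54 ± 0.53 for Mt2 (log2, SE; limma adjusted p = 0.773 for both). Without the second GW1516 array it was -0.82 ± 0.22 and -1.07 ± 0.42. Of the 18 probe sets, 5 had an unadjusted p under 0.05 for the interaction, against 6.35% of all probe sets.

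A second Mt1 probe set (1451612_at) was dim and did not follow the first. It read 49.3, 40.3 and 43.5 with vehicle, 16.8, 83.2 and 5.41 with AICAR, 50.9, 57.4 and 69.3 with GW1516, and 28.1, 78.0 and 37.1 with the combination. Its AICAR arrays spanned a wider range than all others together, and only the GW1516 arrays lay wholly above vehicle. Its difference from vehicle was -1.17 ± 0.73 with AICAR and 0.41 ± 0.73 with GW1516 (log2, SE). The suffix of the brighter probe set marks it as able to match more than 1 transcript, and metallothionein genes are close in sequence, so a share of its signal from Mt2 or another family member could not be told apart from Mt1.

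**Figure D1:**
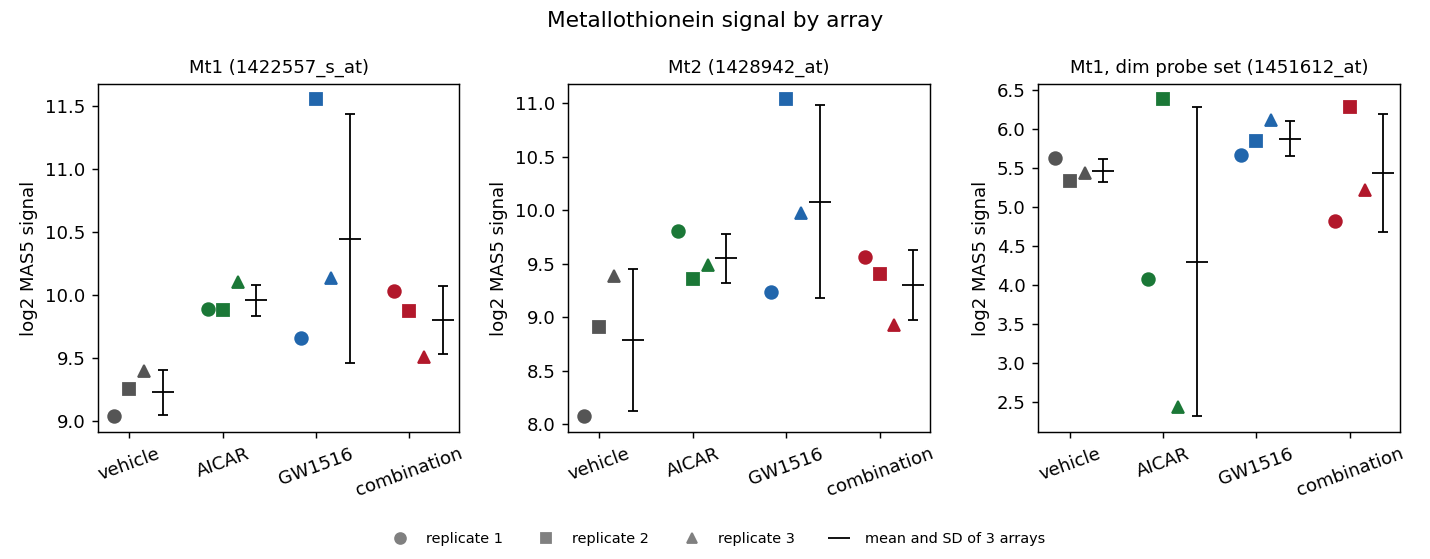
Log2 MAS5 signal (vertical axis) of the 3 metallothionein probe sets in each array, by group; symbols mark the replicate number, and the bar beside each group is the mean and SD of 3 arrays. Each panel has its own scale. For the brighter Mt1 probe set all 9 treated arrays sit above the 3 vehicle arrays, and the second GW1516 array (square) is the highest array for Mt1 and Mt2.

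The brighter Mt1 probe set, which may carry some Mt2 signal, and the Mt2 probe set varied together from array to array. The part of such signal in their likeness was not tested. Over the 12 arrays their log2 signals had a Pearson r of 0.930 (permutation p = 4e-05, adjusted over 45 gene pairs p = 0.00180) and a Spearman rho of 0.916 (permutation p = 1e-04, adjusted p = 0.00450). Without the 2 arrays farthest from the Mt1 median r was 0.786, without the second GW1516 array it was 0.864, and on deviations from the group means it was 0.868. Mt1 and Gpx3 had r = 0.911 (permutation p = 0.000830, adjusted p = 0.0187) and rho = 0.727 (permutation p = 0.00978, adjusted p = 0.147). Their r was 0.527 without the 2 farthest arrays, 0.707 without the second GW1516 array and 0.898 on deviations from the group means, so its size depended on the arrays used. Other pairs also had an adjusted p of r under 0.05, such as Mt2 and Sod1 (r = 0.813, permutation p = 0.00134, adjusted p = 0.0201). The rho of that pair was 0.671 (permutation p = 0.0206, adjusted p = 0.148). The lowest of the 45 values was that of Mt1 and Sod2, with r = -0.808 (permutation p = 0.00326, adjusted p = 0.0247), rho = -0.755 (permutation p = 0.00655, adjusted p = 0.147), and with r = -0.674 without the 2 farthest arrays and -0.545 without the second GW1516 array.

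Among all probe sets tested, those most like the brighter Mt1 probe set over the 12 arrays belonged to Psma5, a proteasome subunit (r = 0.976), Map4, a microtubule-associated protein (0.962), Akt2, a kinase of insulin signalling (0.962), Bnip3, a mitophagy receptor (0.956), and Mknk2, a kinase that phosphorylates eIF4E (0.949). Psma5 also led the list for Mt2 (r = 0.954), followed by Tgm2 (0.921), Naa25 (0.919), Wbp1l (0.917) and Golga4 (0.916). For Txnip the nearest were Zkscan1 (0.888), Egfl7 (0.880), Eif2s3x (0.859), Mylk (0.854) and Prmt9 (0.844). These were picked as the highest values among the probe sets searched and carry no test. Without the second GW1516 array the r of Psma5 was 0.917 with Mt1 and 0.951 with Mt2, and that of Mknk2 with Mt1 was 0.820.

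Hmox1, the inducible heme oxygenase, lay in opposite directions with the single drugs. Its probe set (1448239_at) read 91.7, 82.2 and 110 with vehicle, 51.4, 57.0 and 96.1 with AICAR, 122, 130 and 128 with GW1516, and 82.1, 77.5 and 107 with the combination. The 3 GW1516 arrays were close together and above all the other arrays, and 2 of the 3 AICAR arrays were the lowest of the 12. The difference from vehicle was 0.43 ± 0.25 with GW1516 (log2, SE; limma adjusted p = 0.628), -0.52 ± 0.25 with AICAR (adjusted p = 0.700) and -0.10 ± 0.25 with the combination. AICAR minus GW1516 was -0.95 ± 0.25 (1.93-fold lower; limma adjusted p = 0.348), and these groups did not overlap. The AICAR value depended on single arrays of that group: Hmox1 differed from vehicle by -0.80 without the third and by -0.35 without the first. Nqo1 (1423627_at), a quinone reductase, read between 179 and 274 over the 12 arrays. Its GW1516 arrays held both the lowest and the highest value, and its 95% intervals against vehicle were -0.39 to 0.33 for AICAR, -0.17 to 0.54 for GW1516 and -0.42 to 0.29 for the combination.

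Sod1, the cytosolic copper-zinc superoxide dismutase, showed a small difference with little spread. Its brightest probe set (1451124_at) read 4196, 4128 and 4607 with vehicle, 4625, 4621 and 4526 with AICAR, 5087, 5584 and 5110 with GW1516, and 4367, 4613 and 4373 with the combination. The 3 GW1516 arrays were the 3 highest of the 12. GW1516 lay 0.29 ± 0.07 above vehicle (log2, SE; 1.22-fold; limma adjusted p = 0.282, the lowest of the 18 probe sets in that comparison), and 0.24 ± 0.07 without the second GW1516 array. The combination minus GW1516 was -0.24 ± 0.07 (adjusted p = 0.316), AICAR minus GW1516 was -0.20 ± 0.07, and the interaction was -0.33 ± 0.10 (limma adjusted p = 0.773). The other 3 tested Sod1 probe sets had GW1516 groups that overlapped vehicle. Among them, 1459976_s_at read 2164, 2401 and 2029 with GW1516 against 1834, 2299 and 1903 with vehicle.

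Sod2, the mitochondrial manganese enzyme, lay the other way in its brightest probe set. That probe set (1417193_at) read 3302, 3447 and 3360 with vehicle, 3200, 3307 and 3093 with AICAR, 3242, 2648 and 2879 with GW1516, and 3272, 3510 and 3665 with the combination. All 3 GW1516 arrays were below all vehicle and combination arrays. GW1516 minus vehicle was -0.21 ± 0.08 (log2, SE; limma adjusted p = 0.489), and the combination lay 0.26 ± 0.08 above GW1516 (adjusted p = 0.343). A second probe set (1448610_a_at), at 2080, 1799 and 1961 with GW1516 against 2146, 2188 and 2298 with vehicle, had the same order of these groups, but its combination arrays, at 2371, 1853 and 1869, did not lie above them. Another (1417194_at), at 238, 212 and 231 with AICAR, lay below its vehicle arrays of 293, 286 and 248, and the fourth (1454976_at) overlapped vehicle in every group.

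The peroxidases differed little. Gpx3, the secreted glutathione peroxidase (1449106_at), read 2747, 3367 and 3118 with vehicle, 3532, 3404 and 4014 with AICAR, 3525, 5840 and 3131 with GW1516, and 3906, 3595 and 3072 with the combination. The AICAR arrays lay just above the vehicle arrays, and the GW1516 value came from the second array: the difference from vehicle was 0.39 ± 0.18 with it and 0.12 ± 0.11 without it (log2, SE; limma adjusted p = 0.549 and 0.908). Gpx1, the cytosolic glutathione peroxidase (1460671_at), read between 1409 and 2363, with every group overlapping vehicle and 95% intervals of -0.21 to 0.45 for AICAR, -0.39 to 0.27 for GW1516 and -0.35 to 0.31 for the combination. Prdx3, the mitochondrial peroxiredoxin (1416292_at), was the steadiest of the 10 genes' brightest probe sets over the 12 arrays. It read 4545, 4428 and 4281 with vehicle and 4744, 4677 and 4738 with the combination, and the highest vehicle array lay below the lowest combination array. That difference was 0.10 ± 0.07 (log2, SE; limma adjusted p = 0.665), and its 95% intervals were -0.15 to 0.16 for AICAR and -0.17 to 0.13 for GW1516.

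Txnip, the thioredoxin-interacting protein, was lower with AICAR than with GW1516 in both of its probe sets. The brighter (1415996_at) read 5344, 4399 and 3428 with vehicle, 2652, 3489 and 3210 with AICAR, 4192, 5408 and 5305 with GW1516, and 4517, 3431 and 4444 with the combination. The vehicle arrays spread widely, and 1 of the 3 AICAR arrays lay within their range, while every AICAR array lay below every GW1516 array. AICAR minus vehicle was -0.48 ± 0.16 (log2, SE; 1.39-fold lower; limma adjusted p = 0.561), and AICAR minus GW1516 was -0.67 ± 0.16 (1.59-fold lower; adjusted p = 0.302). The other probe set (1415997_at) read 3715, 2915 and 2006 with vehicle, 1396, 2273 and 1848 with AICAR, 2724, 3468 and 3483 with GW1516, and 3007, 1664 and 2304 with the combination. Its differences were -0.63 ± 0.24 for AICAR minus vehicle and -0.83 ± 0.24 for AICAR minus GW1516 (limma adjusted p = 0.610 and 0.380). GW1516 against vehicle was 0.19 ± 0.16 in the brighter probe set and the combination -0.08 ± 0.16. The spread of the vehicle arrays set these values: without the third vehicle array, the difference in the brighter probe set was -0.65 for AICAR and 0.03 for GW1516, and without the first it was -0.33 and 0.35. Txnip was 1.32-fold higher with the combination than with AICAR alone in the brighter probe set (0.40 ± 0.16, log2, SE; limma adjusted p = 0.674).

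**Figure D2:**
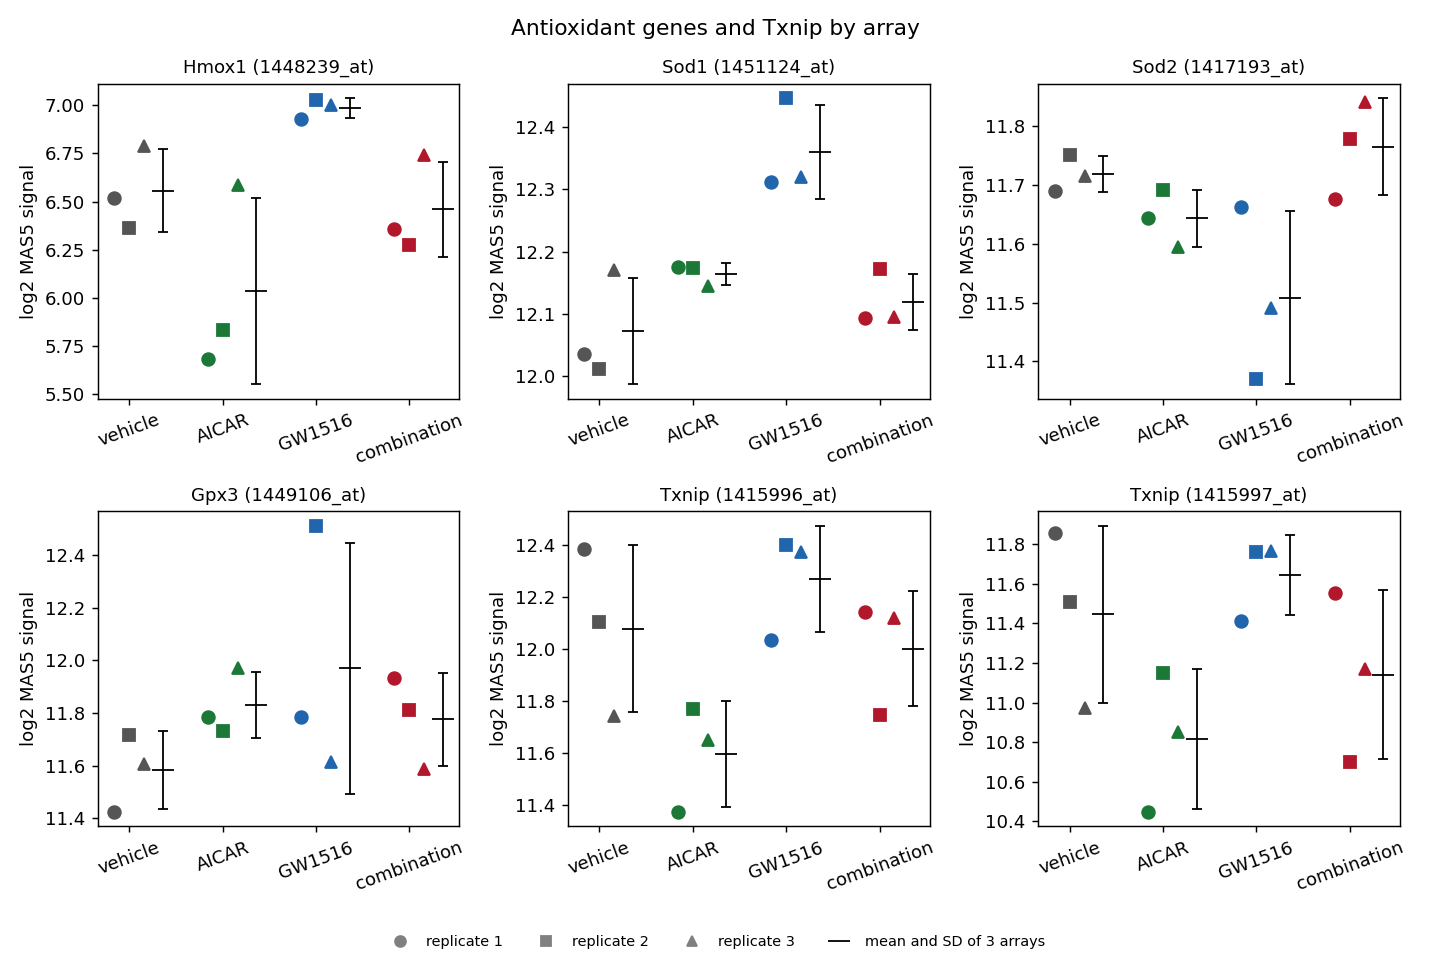
Log2 MAS5 signal (vertical axis, a separate scale in each panel) of Hmox1, the brightest Sod1, Sod2 and Gpx3 probe sets, and both Txnip probe sets in each array, by group; symbols mark the replicate number, and bars give the mean and SD of 3 arrays. The GW1516 arrays are the 3 highest for Hmox1 and Sod1, at 122 to 130 and at 5087 to 5584 on the linear scale, and the AICAR arrays lie below the GW1516 arrays in both Txnip panels.

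In the direct comparison of the single drugs, 0 of the 18 probe sets reached the adjusted threshold. For AICAR against GW1516, 5 of them, from 4 of the 10 genes, had an unadjusted p under 0.05, all with lower signal under AICAR (Hmox1, both Txnip probe sets, the brightest Sod1 probe set and the dim Mt1 probe set), where 3.84% of all probe sets did so in that direction. The difference of the dim Mt1 probe set ran from -2.62 to -0.65 when single arrays were left out (without the second and the third AICAR array). In 4 of them the AICAR arrays lay wholly below the GW1516 arrays, against 5.97% of all probe sets. The median difference of the 18 probe sets was -0.13, against 0.04 over all 27022 (log2). Against vehicle, the groups did not overlap upwards in 2 of 18 probe sets with AICAR (8.69% of all), in 4 with GW1516 (5.84%) and in 2 with the combination (8.22%). They did not overlap downwards in 1 (8.69%), 2 (8.14%) and 0 (9.78%). The combination arrays lay wholly above those of AICAR in 2 probe sets (6.02%) and wholly below in 0 (7.66%), and above those of GW1516 in 1 (7.08%) and below in 2 (6.26%). The upward shares with AICAR and with the combination were near those of all probe sets. The median over the 18 was -0.02 for AICAR, 0.16 for GW1516 and 0.02 for the combination, against 0.01, -0.02 and -0.01 over all probe sets.

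**Figure D3:**
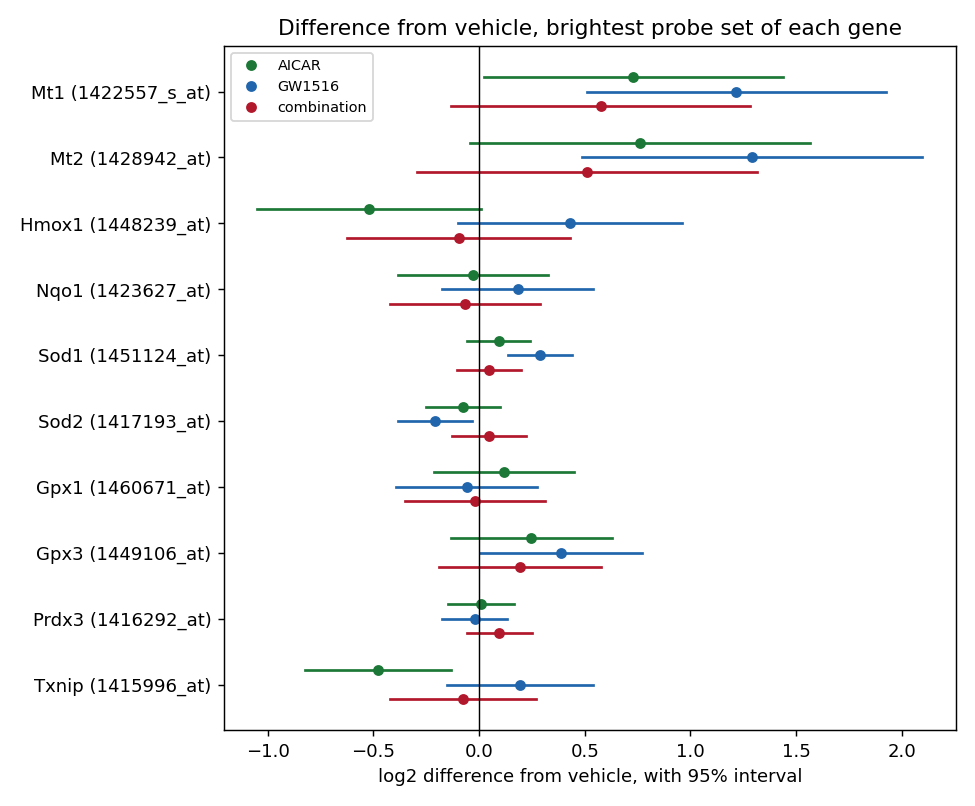
Log2 difference from vehicle (horizontal axis) for the brightest probe set of each of the 10 genes, with 95% intervals from the limma fit; colours mark AICAR, GW1516 and the combination, each from 3 arrays against the same 3 vehicle arrays. The metallothioneins lie farthest to the right, up to 1.29 for Mt2 with GW1516, and the intervals of Hmox1, Nqo1, Gpx1 and Prdx3 include 0 in all 3 comparisons. No difference passed the adjusted threshold.

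The genes around this set were read from 6 lists (metal handling, NRF2 regulation, the glutathione system, the thioredoxin and peroxiredoxin system, a list of superoxide, catalase, heme and quinone genes, and the relatives and regulators of Txnip). Of 66 genes listed, 57 were tested, and limma called 0 of them in any of the 7 comparisons. At an unadjusted p under 0.05, 4 were higher and 3 lower with AICAR (7.21% of all probe sets passed in either direction), 13 higher and 9 lower with GW1516, and 7 higher and 3 lower with the combination (11.2% of all). The GW1516 count was 22 of 57, with 8.99% of all probe sets past the same threshold, and without the second GW1516 array it was 11 of 57 (8 higher and 3 lower), with 6.72% of all.

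In metal handling, Slc30a1, the zinc exporter ZnT1 and itself a target of MTF1, read 217, 190 and 224 with vehicle and 102, 118 and 91.4 with AICAR. Slc30a1 also read 111, 195 and 163 with GW1516, and 140, 167 and 151 with the combination. The AICAR arrays lay wholly below the vehicle arrays, the opposite order to that of Mt1, with a difference of -1.02 ± 0.20 (log2, SE; limma adjusted p = 0.207). Slc39a14, the zinc importer ZIP14, read 158, 166 and 140 with vehicle and 184, 324 and 204 with GW1516 (0.58 ± 0.19; adjusted p = 0.429). Mtf1 read between 262 and 328 over the 12 arrays. The median difference of the 7 tested genes of this list was -0.13 with AICAR and -0.24 with GW1516.

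In NRF2 regulation, 0 of 8 tested genes were called. Nfe2l1, a relative of NRF2 that controls proteasome genes, read 3000, 2889 and 2952 with vehicle and 3634, 4095 and 3754 with GW1516 (0.38 ± 0.08, log2, SE; limma adjusted p = 0.189). Maff, a small Maf partner of these factors, was dim: it read 61.2, 56.8 and 29.6 with vehicle and 14.1, 6.90 and 6.24 with the combination (adjusted p = 0.155). In the glutathione system, 0 of 17 were called. Gstm1, a glutathione transferase, read 2707, 2519 and 2331 with vehicle and 3333, 3403 and 3134 with the combination (0.39 ± 0.09; adjusted p = 0.0946), and lay 0.33 ± 0.09 above vehicle with GW1516. Gstk1, a transferase of mitochondria and peroxisomes, differed from vehicle by -0.38 ± 0.11 with GW1516, while the microsomal Mgst3 differed by 0.38 ± 0.12 (limma adjusted p = 0.336 and 0.410). Gclm, the modifier subunit of glutamate-cysteine ligase, had a combination minus GW1516 difference of -0.44 ± 0.13, and Gpx7 an interaction of -0.82 ± 0.25.

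Among superoxide, catalase, heme and quinone genes, Sod3, the extracellular superoxide dismutase, read 209, 159 and 239 with vehicle, 293, 345 and 500 with AICAR, 268, 224 and 310 with GW1516, and 392, 325 and 265 with the combination. Its AICAR and combination arrays lay wholly above vehicle, by 0.89 ± 0.21 and 0.69 ± 0.21 (log2, SE; limma adjusted p = 0.299 and 0.242). Fth1, the ferritin heavy chain, lay 0.25 ± 0.07 above vehicle with the combination (adjusted p = 0.209), and Nqo2, a relative of Nqo1, lay 0.54 ± 0.16 higher with AICAR than with GW1516 (adjusted p = 0.392). In the thioredoxin and peroxiredoxin system, 0 of 10 were called. Txn1, the cytosolic thioredoxin that Txnip binds, read 1977 to 2108 with vehicle and up to 2942 in the second GW1516 array.

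Of Txnip's relatives and regulators, Arrdc2, an arrestin-domain protein of the same family, read 659, 1282 and 1527 with vehicle and between 1664 and 2597 in the 9 treated arrays. All treated Arrdc2 arrays lay above vehicle, by 0.89 with AICAR, 1.01 with GW1516 and 0.81 with the combination (SE 0.24 each, log2; limma adjusted p = 0.371, 0.249 and 0.209). Arrdc2 therefore did not share the low AICAR level of Txnip. The glucose-sensing factors Mlxip and Mlxipl read 1223 to 1624 and 1367 to 1880. Klf15, a Krüppel-like factor of muscle metabolism, read 625, 679 and 566 with vehicle and 829, 1773 and 778 with GW1516 (0.75 ± 0.25; adjusted p = 0.429).

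The second GW1516 array also stood apart in other gene groups. The median log2 level of 13 glucocorticoid-responsive genes against the vehicle mean was 1.36 in that array, against 0.22 and 0.42 in the other GW1516 arrays, 0.24 to 0.37 with AICAR, 0.20 to 0.31 with the combination and -0.12 to 0.06 with vehicle. Cebpd, a glucocorticoid-responsive transcription factor, read 4628 there, and 472 to 1308 in the other 11 arrays. Sgk1, of the same list, lay the other way, at 3896 there against 4004 to 5220 with vehicle. Of the 13 genes, 12 had a fitted GW1516 difference from vehicle above 0. In that list limma called 0 of 13 genes for GW1516, with 0.0407% of all probe sets called. At an unadjusted p under 0.05, 9 of 13 were higher with GW1516 (8.99% of all in either direction). No count without the second GW1516 array was made for this list. For the combination limma called 2 (0.292% of all), Foxo1 (1.59 ± 0.20, log2, SE, limma adjusted p = 0.00560) and Pdk4 (1.32 ± 0.24, adjusted p = 0.0410), which were higher. At the unadjusted threshold 6 were higher and 1 lower with the combination (11.2% of all in either direction). Sgk1 read 3594 to 3703 with the combination, wholly below its vehicle arrays. In the second GW1516 array the median of 6 fibroblast markers was -1.43, against -0.29 to 0.23 elsewhere, and the summed signal of 8 macrophage markers was 1511, the lowest of the 12. Macrophage sums were 2173 to 2888 with vehicle, 2448 to 2860 with AICAR, 1511 to 2633 with GW1516 and 1841 to 2537 with the combination. Their part in the metallothionein and Gpx3 values was not tested.

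Muscle markers were abundant in all arrays. Their summed signal over 6 genes was 118826 to 122898 with vehicle, 127203 to 129344 with AICAR, 120502 to 152482 with GW1516 and 138861 to 143504 with the combination, so that the AICAR and combination arrays lay wholly above vehicle. The 5 adipocyte markers on the array varied within groups, with summed signals of 4903 to 10642 with vehicle, 6396 to 18347 with AICAR, 6490 to 13072 with GW1516 and 6184 to 14467 with the combination. The 3 red blood cell markers on the array summed to 86.7 to 202. Neutrophil sums over 4 markers were 82.7 to 123 with vehicle and 113 to 162 in the treated arrays, and endothelial sums over 6 markers were 1443 to 1817. The median signal per array was 48.0 to 49.8 with vehicle, 52.0 to 54.2 with AICAR, 45.4 to 49.1 with GW1516 and 50.6 to 51.9 with the combination. The 3′ to 5′ signal ratio of Gapdh, a sign of RNA integrity, was 0.802 to 0.842, 0.848 to 0.880, 0.838 to 0.863 and 0.831 to 0.870 in these groups. The same ratio of Actb was 0.855 to 0.936, 0.856 to 0.909, 0.782 to 0.847 and 0.785 to 0.812. The AICAR arrays lay wholly above vehicle in the median signal and the Gapdh ratio, and the combination arrays in the median signal. In the Actb ratio the AICAR arrays overlapped vehicle, and the GW1516 and combination arrays lay wholly below vehicle. The part of these markers and measures in the members' values was not tested.

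**Figure D4:**
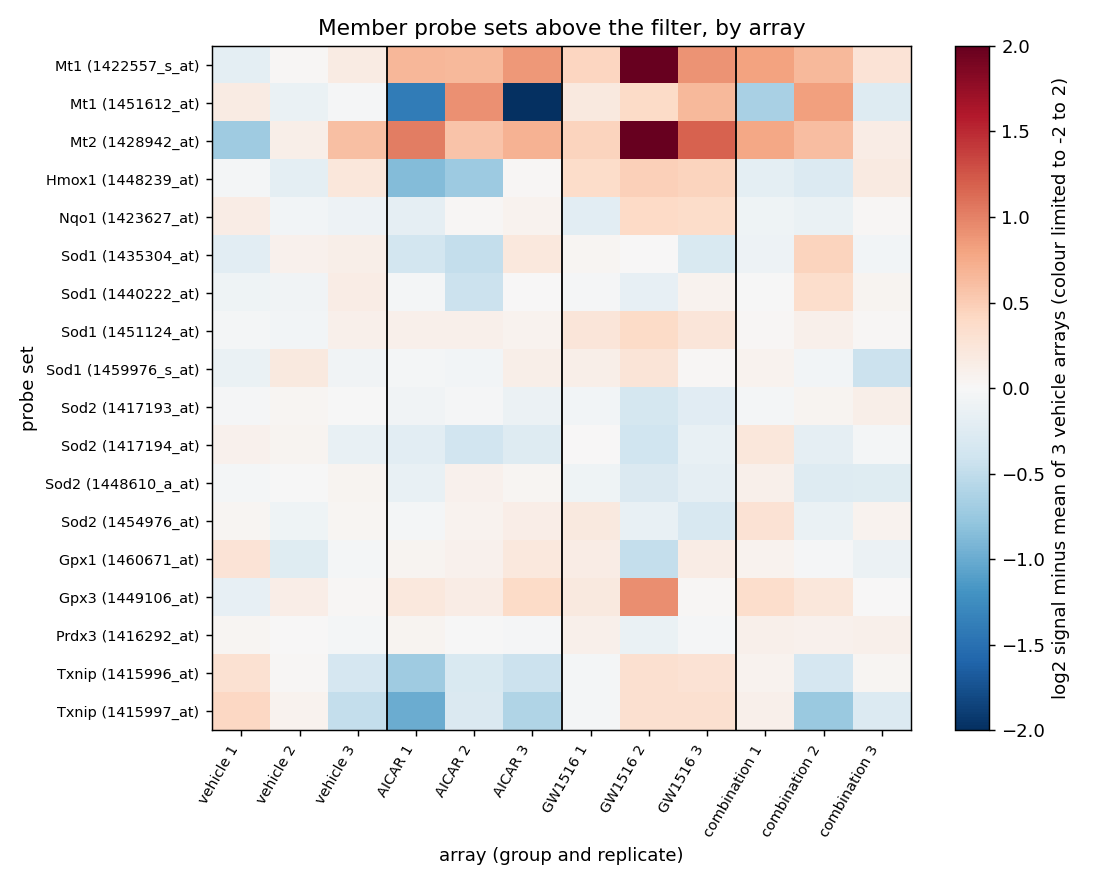
Log2 signal minus the mean of the 3 vehicle arrays (colour, limited to -2 to 2) for the 18 tested probe sets of the 10 genes (rows) in each of the 12 arrays (columns); lines separate the groups. The brighter Mt1 probe set and Mt2 are above the vehicle mean in all 9 treated arrays, both exceed 2 in the second GW1516 array, and most other rows stay pale.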

How the data were processed

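RNA of quadriceps was measured on 12 arrays, each a pool of 3 mice. The deposited intensity values are linear MAS5 signals per the submitters' processing notes; the MAS5 version is not given in the sources used here. The trimmed mean of each array was 200, as checked on the values. Gene symbols came from the platform annotation of 2016. Of 45101 probe sets, 64 controls were left out, and of the rest 34945 had 1 symbol, 932 several and 9160 none. Signals below 1 were set to 1 (3531 of 540444 values), log2 was taken, and probe sets in the lowest 40% by mean (signal under 28.2) were left out. limma 3.58.1 in R 4.3.3 was fitted to all 12 arrays with a trend (8 residual and 6.04 prior degrees of freedom). Tests were two-sided and adjusted over 27022 probe sets, and were checked on simulated data. The median SE was 0.23; 3 arrays per group limit the precision. Correlation p-values came from 100000 permutations of all 12 arrays regardless of group, so they do not separate group differences from variation within groups. All probe sets of the 10 genes were described. Of the other lists, only some of the genes with an unadjusted p under 0.01 and some of the 3 brightest were described. Members and lists were chosen with earlier results of these data known. Alternatives covered scaling, the filter, the pseudocount, 1 probe set per gene, the variance model, the arrays fitted and the threshold. All 10 genes matched a RefSeq gene ID, and 9 had a promoter entry.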

Additional observations from a re-analysis of the deposited data

How the results depend on the processing

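Across the alternatives tried, 189 of 190 recounts of called probe sets among the 18 of these genes gave 0, and leaving out each array in turn gave a range of 0 to 0. The exception was AICAR against vehicle with only those groups in the fit, which called 1 of the 18, the brighter Mt1 probe set. Of 818 refits of 36 differences, 810 kept their direction, and 8 turned while staying small. Leaving out each array in turn, the difference from vehicle ranged from -0.0784 to 0.0483 for Nqo1 with AICAR, from -0.115 to 0.00808 for Nqo1 with the combination, from -0.238 to 0.0187 for Hmox1 with the combination and from -0.242 to 0.0781 for Txnip with the combination; the turns came without the first AICAR or first vehicle array (Nqo1), the third vehicle array (Hmox1), and the second combination or first vehicle array (Txnip). With each array centred on its median, Sod1 became -0.0248 with AICAR and -0.0310 with the combination. Centring subtracts the same value from every probe set of an array, so it moved each comparison equally in all of them. The median of all probe sets went from 0.01 to -0.11 for AICAR against vehicle and from -0.01 to -0.09 for the combination against vehicle. It went from 0.01 to -0.10 for the combination against GW1516 and from 0.04 to -0.12 for AICAR against GW1516. The cause of the other turns was not tested. With the replicate number as a block (replicate block), 0 of the 18 probe sets of these genes were called in each comparison. Arrays with the same number did not deviate together over all tested probe sets (18 pairs, r from -0.09 to 0.05). The labels do not say whether the numbers pair the arrays, and these correlations cannot settle it. The 3 pooled arrays per group limit the precision: the SE of a difference between groups was 0.23 at the median over all probe sets, and from 0.07 to 0.73 among the 18.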
